A study of Mus musculus with 12 samples.

Results

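The core autophagy machinery was followed as 36 genes in cultured mouse macrophages of 2 genotypes, with and without lipopolysaccharide (LPS), the outer membrane glycolipid of Gram-negative bacteria that TLR4 senses. The genes were taken by symbol from the initiation, nucleation, membrane supply, conjugation, protease, ATG8 and cargo receptor steps of the pathway. The rule itself used no measured value, but the genes were chosen with earlier results of these data known. Each of the 36 symbols matched 1 of the 46078 gene identifiers in the count files, and all 36 passed the filter on low counts, which left 13837 genes for testing. The cells were bone marrow-derived macrophages, grown from marrow of male C57BL/6 mice in medium with L929 cell supernatant and then moved to serum-free medium. The Dicer KO group is titled LysMcre/+;Dicerfl/fl;ApoE-/-, in which Cre recombinase made from the LysM (Lyz2) locus, active in myeloid cells, removes loxP-flanked Dicer1 sequence. The control group is titled LysMcre/+;Dicer+/+;ApoE-/-, although another label field calls it wildtype and the names of its count files mark LysM as wildtype. All mice lacked ApoE, so the controls were not wild type at that gene. Every culture received diluted ethanol overnight and then phosphate-buffered saline (vehicle) or LPS for 6 h, with the dose labelled as 100 ng/ul. Each of the 4 groups had 3 libraries. The labels do not tie replicates to separate mice, so the p-values rest on a spread between samples that may be technical only.

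Autophagy encloses cytoplasm, damaged organelles or microbes in a double membrane, the autophagosome, which then fuses with lysosomes. The ULK1 kinase complex starts the process, a class III PI3-kinase complex marks the growing membrane with PI3P, and 2 ubiquitin-like conjugation systems attach ATG8 proteins (the LC3 and GABARAP families) to it, where cargo receptors bind them. In macrophages the same proteins also take part in the handling of engulfed microbes and in the restraint of inflammatory signalling.

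Levels are given as CPM, counts scaled to a common total by library size and TMM factor, listed for replicates 1, 2 and 3 in that order, or as mean ± SD over n = 3 libraries. A gene was called when its adjusted p in edgeR's quasi-likelihood test was under 0.05. Gene-assigned counts ranged from 16172600 to 18886948 per library. Dicer1 measured 42.6 to 52.5 CPM over the control libraries and 14.3 to 20.1 CPM in the Dicer KO libraries, counted over the whole gene. Lyz2, the locus that holds the Cre insertion, measured 3891 to 6041 CPM in control and 12.7 to 20.6 CPM in Dicer KO, so the genotype comparisons are between cells that differ in both genes. The titles give LysMcre/+ for both groups, which leaves this Lyz2 difference unexplained. The Cre dose of each group was not tested. All 12 macrophage markers were measured. Their summed level was 26375 to 27118 CPM in control vehicle and 22355 to 24299 CPM in control LPS. In Dicer KO the sum was 24282 to 24383 CPM in vehicle and 25021 to 26561 CPM in LPS. Lyz2 is among the 12, so these sums do not compare the other macrophage markers between the genotypes. Neutrophil markers (9 of 10 tested) summed to 94.3 to 179.8 CPM. B lymphocyte markers (2 of 6) summed to 85.3 to 106.5 CPM in control vehicle and 38.8 to 54.3 CPM in Dicer KO vehicle, against 6.70 to 11.2 CPM in the LPS libraries. T and NK lymphocyte markers (2 of 8) summed to 37.4 to 40.8 CPM in Dicer KO LPS and 7.83 to 19.9 CPM elsewhere, with Ncr1 at 0, dendritic cell markers (2 of 8) to 17.3 to 18.3 CPM in Dicer KO LPS and 1.92 to 8.78 CPM elsewhere, and stromal markers (0 of 6) to at most 1.28 CPM, with Lum at 0. The part of these markers in the results below was not tested, and in bulk RNA fewer expressing cells cannot be told apart from less RNA per cell. The TMM scaling factors ran from 0.707 to 0.713 in Dicer KO LPS up to 1.29 to 1.31 in control vehicle. In each vehicle group 1 library stood apart (replicate 3 of control, replicate 2 of Dicer KO), with a chi-square per degree of freedom of 13.2 and 9.19 against replicates 1 and 2 in the first group (2.43 between those) and of 11.1 and 7.87 against replicates 1 and 3 in the second (2.21 between those), and results that depend on them are given with and without them.

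The comparison of LPS with vehicle within each genotype asks how 6 h of LPS changes these transcripts. In control macrophages LPS raised the receptors Tax1bp1 and Optn, the membrane protein gene Atg9a, the protease gene Atg4d and the conjugation gene Atg16l1, and lowered the ATG8 gene Gabarapl1, the receptor Calcoco1, the E1-like enzyme Atg7 and the kinases Ulk2 and Ulk1. In all, 15 of the 36 genes were called higher and 18 lower, which is 91.7%, against 79.1% of all genes tested (38.0% higher and 41.1% lower). In Dicer KO macrophages 17 were called higher and 16 lower, again 91.7%, against 80.1% of all genes (37.4% higher and 42.7% lower). Here and below, the shares of all genes were not matched to the members for expression level, on which precision partly depends. The median log2 fold change of the 36 genes was −0.12 in control and 0.00 in Dicer KO, beside −0.06 and −0.10 over all genes tested. Map1lc3a, Gabarap and Sqstm1 were not called in control, and Pik3r4, Map1lc3a and Atg10 were not called in Dicer KO.

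These directions are relative to the typical gene, which TMM scaling sets near no change. With library totals instead, the median of all genes moved to −0.58 in control and −0.85 in Dicer KO, 8 members were called higher and 26 lower in control, and 6 higher and 28 lower in Dicer KO. Among called rises, Atg101, Rb1cc1, Becn1, Atg5, Atg4b and Gabarapl2 in both genotypes, Wipi1 in control, and Atg12, Gabarap and Sqstm1 in Dicer KO then had a negative sign.

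**Figure D1:**
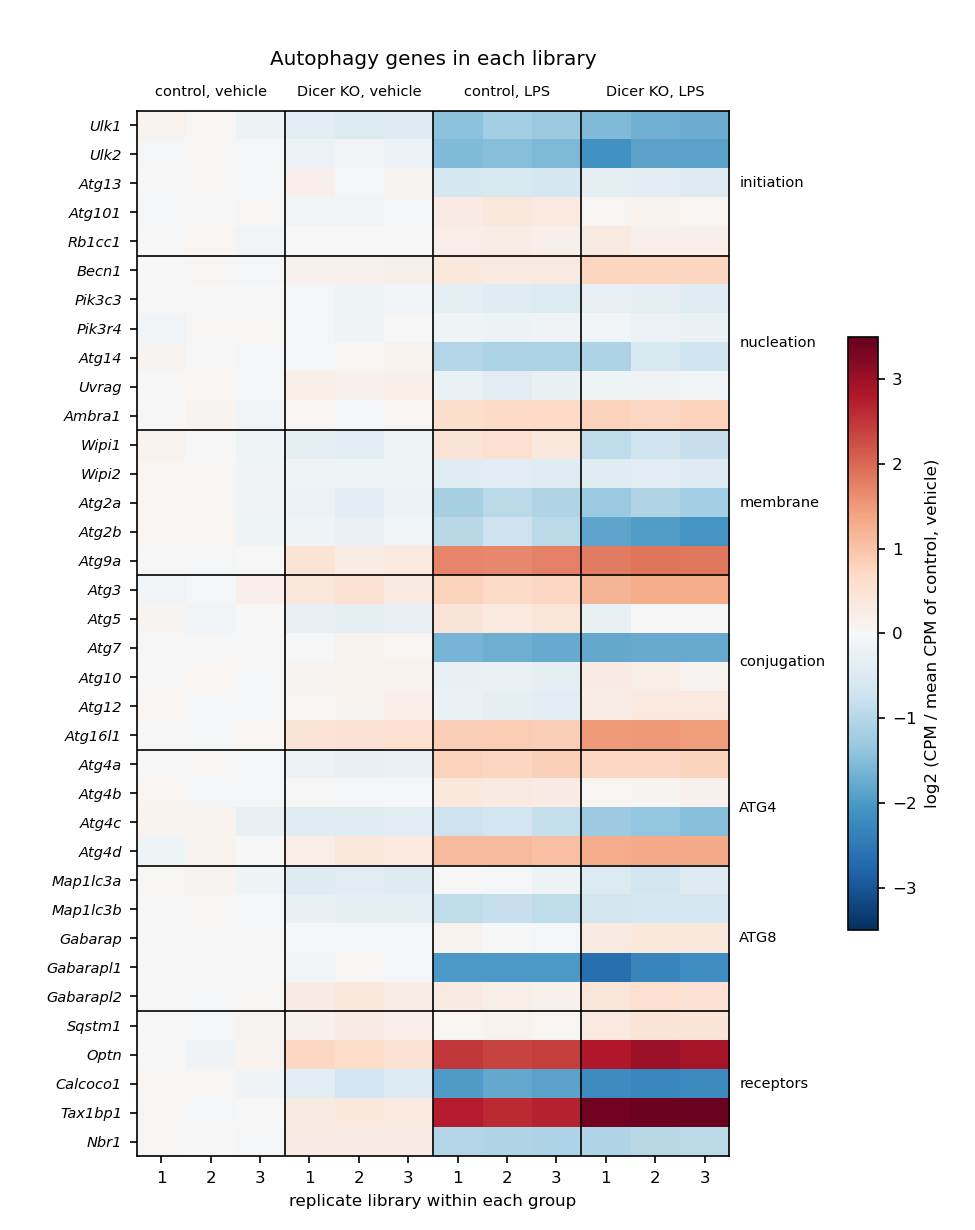
Level of each of the 36 autophagy genes in each of the 12 libraries, as log2 of its CPM over the mean CPM of the 3 control vehicle libraries (colour scale), with genes in rows by step and replicate libraries in columns. The deepest red is Tax1bp1 in the Dicer KO LPS libraries (1742 to 1849 CPM against 165 to 172 CPM in control vehicle), and the darkest blue cells are Gabarapl1 (14.6 to 20.1 CPM against 90.7 to 91.8 CPM) and Calcoco1 in the same libraries.

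**Figure D2:**
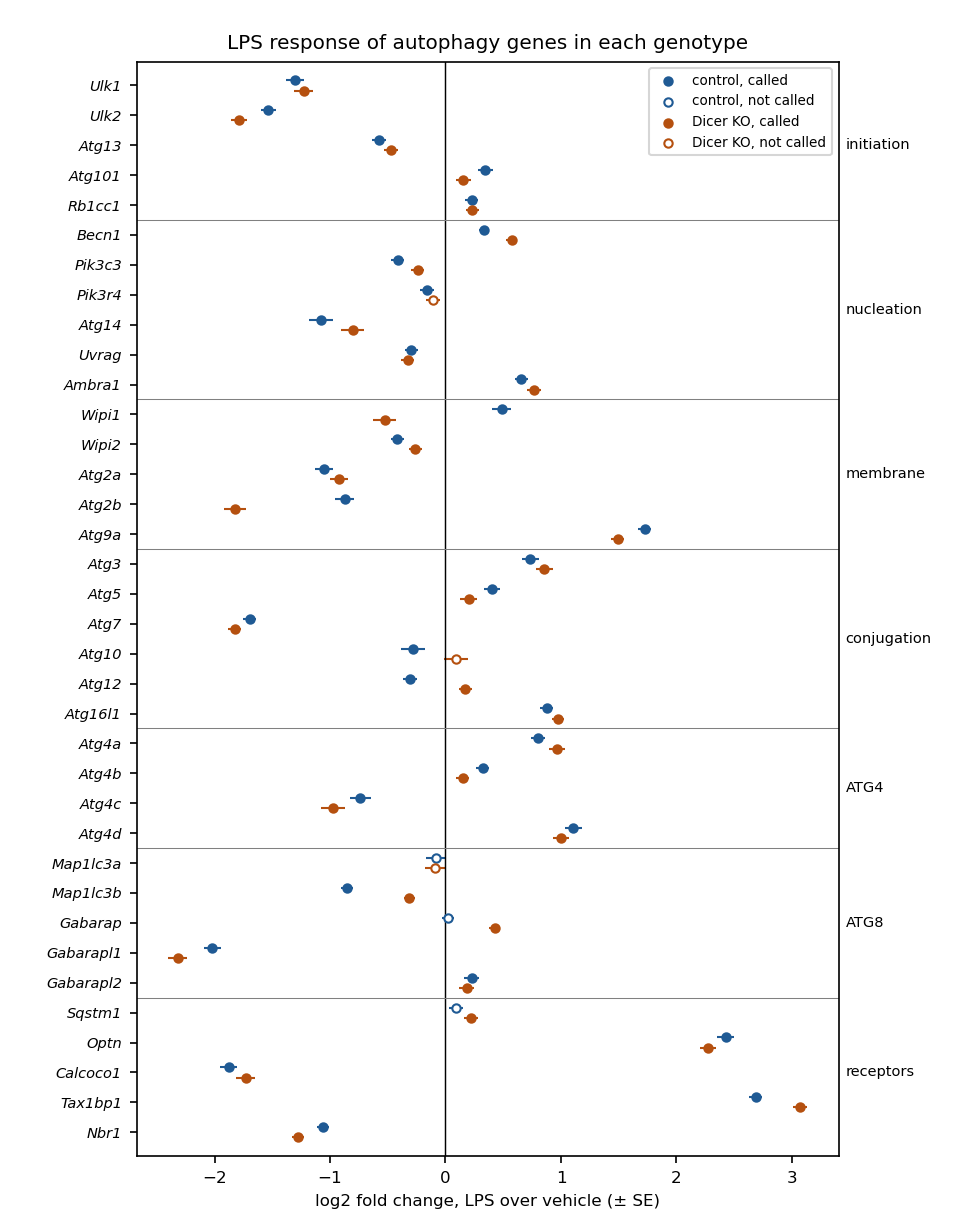
Log2 fold change of LPS over vehicle (x axis, TMM scale) for each gene in control (blue) and Dicer KO (orange), with bars of ±1 SE and open points for genes not called. Most pairs of points lie close together, while Wipi1 (0.49 in control and −0.53 in Dicer KO) and Atg12 (−0.31 and 0.17) lie on opposite sides of 0, which they do not with library totals, where both rises are negative.

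The comparison of Dicer KO with control at each treatment asks which of these transcripts differ with the genotype. In vehicle, Optn, Atg16l1, Atg3, Atg9a and Tax1bp1 were the genes most raised in Dicer KO, and Calcoco1, Ulk1, Map1lc3a, Atg4c and Map1lc3b the most lowered. There, 11 of the 36 were called higher and 11 lower (61.1%), against 46.2% of all genes tested (25.0% higher and 21.2% lower), with a median of −0.03 beside 0.01 for all genes. In LPS the largest rises in Dicer KO were in Tax1bp1, Atg16l1, Atg12, Atg3 and Optn, and the largest falls in Wipi1, Atg2b, Atg4c, Atg5 and Map1lc3a. There, 15 were called higher and 11 lower (72.2%), against 55.8% of all genes (28.8% higher and 27.0% lower), with a median of 0.07 beside −0.03. Rb1cc1, Pik3c3, Pik3r4, Ambra1 and Atg7 were called at neither treatment. Under library totals the vehicle counts were 8 higher and 18 lower and the LPS counts 4 higher and 24 lower, with the median of all genes at −0.12 and −0.38. In LPS, 8 genes called higher then had a negative sign (Atg13, Atg14, Uvrag, Atg4d, Map1lc3b, Gabarap, Gabarapl2 and Sqstm1), and no called gene changed sign in vehicle. The calls of Becn1, Uvrag and Sqstm1 in vehicle and of Becn1, Atg10 and Optn in LPS were lost. Ambra1, not called in LPS (adjusted p = 0.0916), was called higher in DESeq2 (adjusted p = 0.0289) and without both libraries that stood apart (adjusted p = 0.0449).

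**Figure D3:**
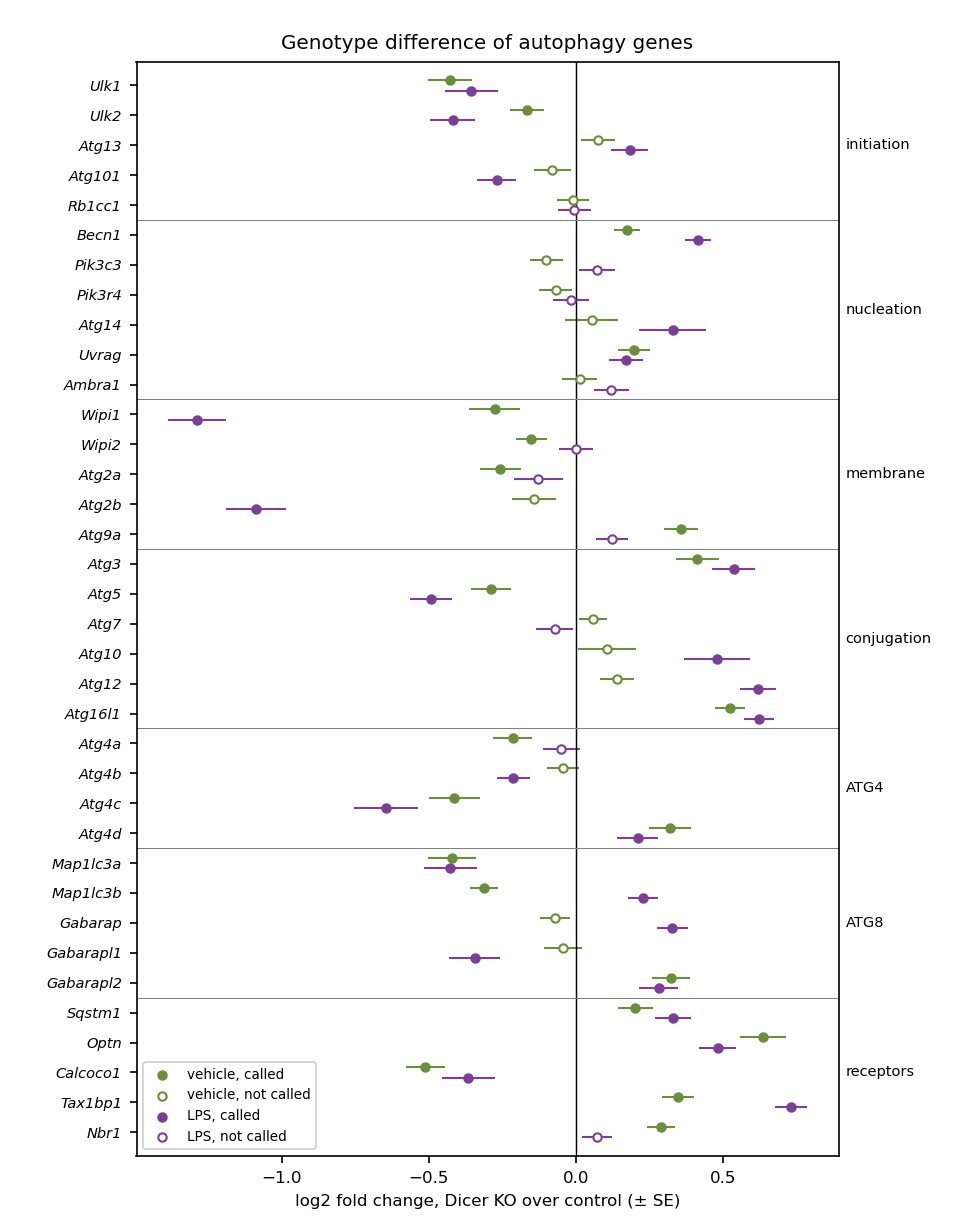
Log2 fold change of Dicer KO over control (x axis, TMM scale) for each gene in vehicle (green) and LPS (purple), with bars of ±1 SE and open points for genes not called. The 2 points farthest to the left are Wipi1 (−1.29) and Atg2b (−1.09) in LPS, and their vehicle points lie at −0.28 and −0.14.

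MicroRNA precursors are cut by the Dicer1 product, so matches to microRNA seeds were looked up in the 3′ UTRs of the members. 2 seed families were searched, the miR-30 family, of which Becn1 is a known target, and the miR-17 family, of which Sqstm1 is one. The seed (bases 2 to 8) is in capitals in these mature sequences, taken from the RefSeq table (GRCm38.p6), where 4 mature microRNAs carry the miR-30 seed and 7 the miR-17 seed.
mmu-miR-30a-5p: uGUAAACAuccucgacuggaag
mmu-miR-30c-5p: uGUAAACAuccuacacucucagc
mmu-miR-17-5p: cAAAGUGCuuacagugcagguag
mmu-miR-20a-5p: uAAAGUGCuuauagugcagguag

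The letters TGTTTAC, complementary to the miR-30 seed, were found on the transcript strand of the 3′ UTR (GENCODE M21, longest 3′ UTR per gene) in 7 of the 36 members (Becn1, Atg3, Atg5, Atg12, Map1lc3b, Gabarap and Gabarapl2) and in 16.1% of 11744 tested genes. Over the first 1000 bases of 3′ UTRs at least that long, they were in 4 of 23 members and in 10.9% of 6422 genes. The letters GCACTTT, complementary to the miR-17 seed, were in 8 members (Sqstm1, Atg2a, Rb1cc1, Atg16l1, Ulk1, Atg7, Atg14 and Atg2b, with 2 matches in Rb1cc1) and in 14.4% of tested genes, and in the window of 1000 bases in 5 of 23 members and 10.4% of genes. These stretches show 7 of the matches with the matched letters in capitals, on the transcript strand, from genes that differed between the genotypes in LPS.
Becn1, miR-30 letters, chr11:101288710-101288734, minus strand: taatattaaaccacaTGTTTACaat
Atg3, miR-30 letters, chr16:45188472-45188496, plus strand: ccttgtcttccatttTGTTTACatc
Gabarap, miR-30 letters, chr11:69994708-69994732, plus strand: atctctttctcccctTGTTTACcct
Atg5, miR-30 letters, chr10:44363524-44363548, plus strand: ttaatgagactttccTGTTTACagt
Sqstm1, miR-17 letters, chr11:50200154-50200178, minus strand: aataaaatggcatatGCACTTTaac
Atg16l1, miR-17 letters, chr1:87792164-87792188, plus strand: tgtcacacttactttGCACTTTatt
Atg2b, miR-17 letters, chr12:105616571-105616595, minus strand: aacatgtgctgttctGCACTTTatc

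Of the 7 genes with the miR-30 letters, 6 were higher in Dicer KO in LPS and 1, Atg5, was lower, where 35.5% of the 1885 tested genes with these letters were called higher and 26.7% lower, and 28.8% and 27.0% of all genes tested. In vehicle 3 were higher (Becn1, Atg3 and Gabarapl2), 2 lower (Atg5 and Map1lc3b) and 2 not called, against 32.0% higher and 18.4% lower of all genes with the letters. With 7 genes, nothing particular to these matches is read from the counts. Of the 8 genes with the miR-17 letters, 3 were higher in LPS (Sqstm1, Atg16l1 and Atg14), 2 lower (Ulk1 and Atg2b) and 3 not called, while in vehicle 2 were higher, 2 lower and 4 not called. Of the 1695 tested genes with the miR-17 letters, 35.8% were higher and 27.5% lower in LPS, and 32.6% and 20.4% in vehicle. Scaled by library totals, the miR-30 counts in LPS were 2 higher and 2 lower and the miR-17 counts 1 higher and 5 lower. Mature microRNAs were not measured in these libraries, and a match of letters shows no binding.

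Among initiation genes, the kinases Ulk1 and Ulk2 fell most with LPS. Ulk1 (GRCm38 chromosome 5, 110784488 to 110810097), the kinase that starts autophagosome formation, measured 78.1, 74.96 and 64.01 CPM in control vehicle and 26.6, 31.96 and 29.4 CPM in control LPS. The Dicer KO libraries held 56.4, 52.3 and 52.6 CPM in vehicle and 24.6, 22.6 and 21.6 CPM in LPS. Every LPS library lay below every vehicle library, and at each treatment the Dicer KO libraries lay below the control libraries. Ulk1 fell 2.47-fold in control (log2 fold change −1.30 ± 0.08 SE, adjusted p = 2.54e-11) and 2.34-fold in Dicer KO (adjusted p = 1.53e-10). It was 1.35-fold lower in Dicer KO in vehicle (adjusted p = 0.000129) and 1.28-fold lower in LPS (adjusted p = 0.00263). Ulk2, its paralog, measured 63.9, 67.6 and 63.9 CPM in control vehicle and 22.3, 23.4 and 21.8 CPM in control LPS, and 56.1, 61.1 and 57.02 CPM and 15.03, 17.8 and 17.7 CPM in Dicer KO. Its LPS and vehicle libraries did not overlap in either genotype. The fall was 2.89-fold in control and 3.44-fold in Dicer KO (log2 fold changes −1.53 ± 0.06 SE and −1.78 ± 0.07 SE). Ulk2 was also 1.34-fold lower in Dicer KO in LPS (adjusted p = 0.00013). Its smaller difference in vehicle (log2 fold change −0.17 ± 0.06 SE, adjusted p = 0.0246) lost its call when control vehicle replicate 2 was left out (adjusted p = 0.105), and likewise for Dicer KO vehicle replicates 1 and 3 (adjusted p = 0.103 and 0.0922).

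The other initiation genes moved less. Atg13, the adaptor of the kinase complex, fell with LPS in both genotypes (log2 fold changes −0.58 in control and −0.47 in Dicer KO). It was 1.13-fold higher in Dicer KO in LPS (adjusted p = 0.0207), a call lost without control LPS replicate 1 or 3 or Dicer KO LPS replicate 1 (adjusted p = 0.0566, 0.0520 and 0.0744). In vehicle it was not called with all libraries (adjusted p = 0.31) and was called higher without Dicer KO vehicle replicate 2 (adjusted p = 0.0402), the library in which it was lowest of its group. Atg101, which stabilises Atg13, rose with LPS in control (0.35), and also in Dicer KO (0.16, adjusted p = 0.0396), and the call in Dicer KO was lost without any one of its 3 vehicle libraries or of LPS replicates 2 and 3 (adjusted p = 0.0573 to 0.113), without both libraries that stood apart (adjusted p = 0.0918) and without the filter on low counts (adjusted p = 0.223). In LPS it was 1.21-fold lower in Dicer KO (adjusted p = 0.00203). Rb1cc1, the scaffold also called FIP200, rose by the same amount in both genotypes to 2 decimals (0.23 in each) and had genotype differences of −0.01 in vehicle and −0.01 in LPS, neither called (adjusted p = 0.889 and 0.947).

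Among nucleation genes, Becn1 rose, a rise that had a negative sign with library totals, and Atg14 fell. Becn1 (chromosome 11, 101285952 to 101302286), the scaffold of the class III PI3-kinase complex, measured 79.9, 82.5 and 78.4 CPM in control vehicle and 103, 99.6 and 100.4 CPM in control LPS. It measured 89.9, 89.9 and 91.97 CPM in Dicer KO vehicle and 135, 134 and 135 CPM in Dicer KO LPS. The 4 groups did not overlap, and Dicer KO was above control at each treatment. The rise with LPS was 1.26-fold in control and 1.49-fold in Dicer KO, and the genotype difference was 1.13-fold in vehicle (adjusted p = 0.00344) and 1.33-fold in LPS (adjusted p = 2.83e-07). The vehicle difference was not called without the filter on low counts (adjusted p = 0.0548), and neither genotype difference was called with library totals. Exons of Cntd1 on the opposite strand cover 43.9% of the Becn1 exon bases, and Cntd1 itself averaged 37.02 ± 0.801 CPM in control vehicle, the lowest group, against 63.3 ± 0.730 CPM in Dicer KO LPS, the highest. Between these, Cntd1 averaged 40.2 ± 2.48 CPM in Dicer KO vehicle and 46.7 ± 0.585 CPM in control LPS. Its 4 groups thus came in the same order as those of Becn1. Since the strand setting of the counting is not given, reads of the 2 genes cannot be told apart there, and which gene they came from was not tested.

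Atg14, which directs the complex to autophagosome formation, fell with LPS in control (log2 fold change −1.08 ± 0.10 SE) and Dicer KO (−0.80 ± 0.10 SE). In LPS it was higher in Dicer KO (11.6, 17.2 and 15.2 CPM against 12.1, 11.6 and 11.4 CPM in control), but the groups overlapped and the call (log2 fold change 0.33 ± 0.11 SE, adjusted p = 0.0202) was lost without control LPS replicate 2 or 3 or Dicer KO LPS replicate 2 or 3 (adjusted p = 0.0623 to 0.169). Uvrag, the subunit of the alternative complex that acts in endosome and autophagosome maturation, fell with LPS in both genotypes (−0.30 and −0.33). It was higher in Dicer KO in vehicle (0.20, adjusted p = 0.00563) and in LPS (0.17, adjusted p = 0.0187), the second call being lost without replicate 2 of control LPS or replicate 3 of Dicer KO LPS (adjusted p = 0.142 and 0.0645). Ambra1, a Becn1 partner that links it to ULK1 signalling, rose 1.58-fold in control and 1.70-fold in Dicer KO, the second not called with library totals. The lipid kinase Pik3c3 fell with LPS in both (−0.41 and −0.24). Pik3r4, its regulatory subunit, was called in 1 of the 5 comparisons (LPS in control, log2 fold change −0.16 ± 0.06 SE, adjusted p = 0.0187), a call lost without control vehicle replicate 2 or 3, without control LPS replicate 2, and in DESeq2 (adjusted p = 0.0522 to 0.100).

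The genes that supply membrane and read PI3P held the largest genotype differences in LPS. Wipi1 (chromosome 11, 109573331 to 109611967), a protein that binds PI3P on the forming autophagosome, measured 21.8, 20.4 and 17.9 CPM in control vehicle and 27.8, 30.2 and 26.05 CPM in control LPS. Its Dicer KO levels were 16.1, 15.4 and 18.1 CPM in vehicle and 10.8, 12.2 and 11.4 CPM in LPS. LPS libraries were above vehicle libraries in control and below them in Dicer KO, without overlap. Wipi1 rose 1.40-fold in control (adjusted p = 3.81e-05) and fell 1.44-fold in Dicer KO (adjusted p = 9.36e-05), and in LPS it was 2.44-fold lower in Dicer KO (log2 fold change −1.29 ± 0.10 SE, adjusted p = 2.8e-09). Its rise in control had a negative sign with library totals. In vehicle the groups overlapped, and the difference (log2 fold change −0.28 ± 0.09 SE, adjusted p = 0.0145) was not called without control vehicle replicate 1 or Dicer KO vehicle replicate 1 or 2 (adjusted p = 0.0832, 0.0506 and 0.0657). Atg2b (chromosome 12, 105616136 to 105685211), 1 of the 2 ATG2 lipid transfer proteins that feed the growing membrane, measured 33.4, 33.04 and 28.7 CPM in control vehicle and 16.2, 19.1 and 16.6 CPM in control LPS. In Dicer KO it measured 29.2, 27.2 and 29.9 CPM in vehicle and 8.79, 8.11 and 7.53 CPM in LPS, the lowest of the 4 groups. The fall with LPS was 1.83-fold in control and 3.53-fold in Dicer KO, so that in LPS Atg2b was 2.13-fold lower in Dicer KO (log2 fold change −1.09 ± 0.10 SE, adjusted p = 5.1e-08). In vehicle the groups overlapped and the difference was not called (adjusted p = 0.133), but it was called lower without control vehicle replicate 3 (adjusted p = 0.0220).

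Atg2a, the other ATG2 gene, fell with LPS in control (−1.05) and Dicer KO (−0.92) and was lower in Dicer KO in vehicle (−0.26, adjusted p = 0.0055), while in LPS its difference was −0.13 and not called (adjusted p = 0.2). Wipi2, the PI3P reader that brings in the conjugation machinery, fell with LPS (−0.42 and −0.26). Its genotype difference in vehicle (log2 fold change −0.15 ± 0.05 SE, adjusted p = 0.0266) was not called in DESeq2 (adjusted p = 0.0553), in a fit of the 2 groups alone (adjusted p = 0.0505) or without any vehicle library except control vehicle replicate 3 (adjusted p = 0.0612 to 0.111). Atg9a, the transmembrane protein of the vesicles that seed autophagosomes, went the other way. It measured 28.1, 27.5 and 28.6 CPM in control vehicle and 92.4, 90.7 and 95.1 CPM in control LPS, and 38.95, 33.3 and 35.5 CPM and 99.3, 102 and 102 CPM in Dicer KO. All LPS libraries lay above all vehicle libraries, and at each treatment the Dicer KO libraries lay above the control libraries. Atg9a rose 3.30-fold in control and 2.81-fold in Dicer KO (log2 fold changes 1.72 ± 0.06 SE and 1.49 ± 0.06 SE). It was 1.28-fold higher in Dicer KO in vehicle (adjusted p = 7.25e-05), and the difference in LPS (log2 fold change 0.12 ± 0.05 SE, adjusted p = 0.0589) was not called in edgeR with all libraries, but was called in DESeq2 (adjusted p = 0.0122), without Dicer KO vehicle replicate 1 or 2 (adjusted p = 0.0433 and 0.0467) and without both libraries that stood apart (adjusted p = 0.0305). Exons of Gm29253 on the same strand, listed at 0 in every library, cover 31.8% of its exon bases.

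The conjugation enzymes split. Atg7 (chromosome 6, 114643097 to 114860614), the E1-like enzyme that activates both Atg12 and the ATG8 proteins, measured 72.2, 72.5 and 72.9 CPM in control vehicle and 23.6, 22.2 and 21.4 CPM in control LPS. The Dicer KO libraries held 72.7, 78.4 and 75.4 CPM in vehicle and 21.04, 21.6 and 21.3 CPM in LPS. The fall with LPS was 3.24-fold in control (log2 fold change −1.70 ± 0.06 SE, adjusted p = 1.5e-15) and 3.54-fold in Dicer KO, while the genotypes overlapped at both treatments and neither genotype difference was called (adjusted p = 0.35 in vehicle and 0.367 in LPS). Atg3, the E2-like enzyme that passes ATG8 to lipid, measured 32.7, 33.1 and 39.3 CPM in control vehicle, 61.1, 55.6 and 58.1 CPM in control LPS, 45.7, 50.8 and 43.5 CPM in Dicer KO vehicle and 80.4, 87.04 and 86.1 CPM in Dicer KO LPS. All LPS libraries were above all vehicle libraries, and the Dicer KO libraries were above the control libraries at each treatment. Atg3 rose 1.66-fold in control and 1.81-fold in Dicer KO, and was 1.33-fold (adjusted p = 0.000175) and 1.45-fold (adjusted p = 4.75e-06) higher in Dicer KO in vehicle and LPS. With library totals its rise with LPS in Dicer KO was no longer called.

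Atg16l1, which with Atg12 and Atg5 sets the place of ATG8 lipidation, measured 36.1, 35.4 and 38.9 CPM in control vehicle and 67.2, 68.4 and 66.8 CPM in control LPS. It measured 51.3, 52.2 and 55.2 CPM in Dicer KO vehicle and 103, 106 and 102 CPM in Dicer KO LPS. The 4 groups did not overlap, with Dicer KO LPS highest. The rise with LPS was 1.83-fold in control and 1.96-fold in Dicer KO, and the genotype difference was 1.44-fold in vehicle (log2 fold change 0.52 ± 0.05 SE, adjusted p = 2.7e-07) and 1.54-fold in LPS (log2 fold change 0.62 ± 0.05 SE, adjusted p = 8.4e-09). Atg5, the partner conjugated to Atg12, was lower in Dicer KO at both treatments. Its vehicle libraries held 37.9, 33.1 and 35.1 CPM in control against 29.2, 28.6 and 28.98 CPM in Dicer KO, and its LPS libraries 48.1, 45.1 and 47.2 CPM against 29.8, 35.3 and 34.7 CPM. The genotypes did not overlap at either treatment, with log2 fold changes of −0.29 ± 0.07 SE (adjusted p = 0.0019) and −0.49 ± 0.07 SE (adjusted p = 9.36e-06). Atg5 rose with LPS in control (0.40), and also in Dicer KO (0.20, adjusted p = 0.0158), the second call being lost without Dicer KO LPS replicate 2 or 3 (adjusted p = 0.0880 and 0.0711).

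Atg12, the ubiquitin-like protein of the first conjugation system, measured 62.6, 57.9 and 56.9 CPM in control vehicle and 50.5, 47.3 and 45.5 CPM in control LPS. Its Dicer KO levels were 62.6, 63.7 and 69.01 CPM in vehicle and 70.3, 74.3 and 75.5 CPM in LPS. It fell 1.24-fold with LPS in control (adjusted p = 0.000111) and rose 1.13-fold in Dicer KO (adjusted p = 0.012), a rise that lost its call when vehicle replicate 1 or LPS replicate 3 of Dicer KO was left out (adjusted p = 0.0587 and 0.0524) and had a negative sign with library totals. In LPS the Dicer KO libraries were all above the control libraries (1.54-fold, log2 fold change 0.62 ± 0.06 SE, adjusted p = 8.45e-08). In vehicle the difference was not called (adjusted p = 0.055), though it was without replicate 1 of any group (adjusted p = 0.0287 to 0.0494). Atg10, the E2-like enzyme for Atg12, was the least abundant conjugation gene by CPM, at 5.76, 5.81 and 5.40 CPM in control LPS and 8.42, 7.96 and 7.31 CPM in Dicer KO LPS. Those groups did not overlap (log2 fold change 0.48 ± 0.11 SE, adjusted p = 0.00125, and not called with library totals). In vehicle Atg10 measured 6.80, 7.25 and 6.56 CPM in control and 7.35, 7.41 and 7.42 CPM in Dicer KO. Its fall with LPS in control (log2 fold change −0.28 ± 0.11 SE, adjusted p = 0.0215) lost its call in DESeq2 and without replicate 2 of control vehicle or 3 of control LPS (adjusted p = 0.0767 to 0.0953).

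TFEB and its relatives, the best known activators of autophagy genes, bind the palindrome CACGTG, which reads the same on both strands. It was looked up in the RefSeq promoter table (GRCm38.p6, 300 bases per promoter), where 30 of the 36 members have an entry and Rb1cc1, Becn1, Pik3c3, Atg12, Atg16l1 and Map1lc3a have none. It was in the promoters of 4 of the 30 (Atg3, Atg5, Atg7 and Atg14) and in 7.15% of 32851 promoters. The longer letters TCACGTGA, which contain it, were in 1 member, Atg3, and in 0.974% of promoters. Members were counted by gene, and the percentages by promoter entry over all genes, tested here or not, so these are not directly comparable. Those 4 genes did not move alike, since Atg3 and Atg5 rose with LPS in both genotypes while Atg7 and Atg14 fell. Stretches upstream of the start of Atg3 and Atg5 are printed with CACGTG in capitals, since these 2 genes of 1 pathway step differed between the genotypes in opposite directions.
Atg3, chr16:45158679-45158778, plus strand: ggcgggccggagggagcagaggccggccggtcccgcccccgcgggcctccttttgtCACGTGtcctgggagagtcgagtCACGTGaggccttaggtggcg
Atg5, chr10:44268239-44268338, plus strand: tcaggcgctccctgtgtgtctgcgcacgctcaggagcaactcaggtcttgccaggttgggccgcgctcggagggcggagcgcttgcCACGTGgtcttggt

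The ATG4 proteases, which trim ATG8 proteins for conjugation and release them again, moved in both directions with LPS. Atg4d measured 15.4, 18.5 and 17.3 CPM in control vehicle, 37.7, 37.2 and 35.4 CPM in control LPS, 19.96, 22.4 and 21.6 CPM in Dicer KO vehicle and 41.9, 42.8 and 42.9 CPM in Dicer KO LPS. All LPS libraries were above all vehicle libraries, and the rise was 2.16-fold in control and 2.00-fold in Dicer KO (log2 fold changes 1.11 ± 0.07 SE and 1.00 ± 0.07 SE). Atg4d was also higher in Dicer KO in vehicle (0.32, adjusted p = 0.00147) and in LPS (0.21, adjusted p = 0.0142, or 0.0640 without control LPS replicate 3). Exons of Kri1 on the opposite strand cover 19.3% of its exon bases, and Kri1 averaged 28.2 ± 2.21 CPM in control vehicle and 48.1 ± 1.30 CPM in control LPS.

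Atg4c went the other way, with 34.96, 34.8 and 26.8 CPM in control vehicle and 19.7, 20.2 and 17.99 CPM in control LPS. In Dicer KO it measured 23.97, 24.1 and 24.5 CPM in vehicle and 13.2, 12.2 and 11.5 CPM in LPS. The Dicer KO libraries were below the control libraries at each treatment (log2 fold changes −0.41 ± 0.09 SE, adjusted p = 0.000799, and −0.65 ± 0.11 SE, adjusted p = 5.6e-05), and control vehicle replicate 3 was the lowest of its group. LPS lowered Atg4c in control (−0.74) and in Dicer KO (−0.97). Atg4a rose 1.74-fold and 1.95-fold with LPS in control and Dicer KO and was lower in Dicer KO in vehicle (log2 fold change −0.21 ± 0.07 SE, adjusted p = 0.012), a call lost without control vehicle replicate 2 or Dicer KO vehicle replicate 2 (adjusted p = 0.0510 and 0.0514). Of its words of 50 bases, 51.2% also occur in Atg4a-ps, a pseudogene listed at 0.205 to 0.601 CPM on average, so reads can be lost or shared between the copies. Atg4b rose with LPS in control (0.32) and Dicer KO (0.15, adjusted p = 0.02), the second call being lost without Dicer KO vehicle replicate 2, Dicer KO LPS replicate 3 or the filter on low counts (adjusted p = 0.0541, 0.0878 and 0.133). In LPS Atg4b was 1.16-fold lower in Dicer KO (adjusted p = 0.00347).

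In the ATG8 family LPS lowered Gabarapl1 and Map1lc3b. Gabarapl1 (chromosome 6, 129533160 to 129542346) measured 91.8, 90.7 and 91.3 CPM in control vehicle and 22.5, 22.5 and 22.5 CPM in control LPS. The Dicer KO libraries held 84.7, 93.8 and 87.2 CPM in vehicle and 14.6, 18.5 and 20.1 CPM in LPS. The LPS libraries were far below the vehicle libraries, and Dicer KO LPS was below control LPS without overlap. Gabarapl1 fell 4.05-fold in control (log2 fold change −2.02 ± 0.07 SE, adjusted p = 9.79e-15) and 4.99-fold in Dicer KO (log2 fold change −2.32 ± 0.08 SE, adjusted p = 2.63e-15). The genotype difference was −0.34 in LPS (adjusted p = 0.00279) and −0.04 in vehicle, where it was not called (adjusted p = 0.612). Opposite-strand exons of 1700101I11Rik cover 28.3% of its exon bases, and that gene averaged 5.503 ± 0.916 CPM in control vehicle and 1.26 ± 0.413 CPM in control LPS.

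Map1lc3b (chromosome 8, 121590361 to 121598760), which encodes LC3B, the usual protein marker of autophagosomes, measured 163, 166 and 152 CPM in control vehicle and 87.3, 91.6 and 87.2 CPM in control LPS. It measured 133, 128 and 127 CPM in Dicer KO vehicle and 102, 105 and 105 CPM in Dicer KO LPS. The 4 groups did not overlap, with Dicer KO below control in vehicle and above it in LPS. LPS lowered it 1.81-fold in control and 1.24-fold in Dicer KO. The genotype difference was −0.31 ± 0.05 SE on the log2 scale in vehicle (adjusted p = 3.44e-05) and 0.23 ± 0.05 SE in LPS (adjusted p = 0.00074), the second of negative sign with library totals.

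Gabarap measured 362, 353 and 354 CPM in control vehicle and 389, 351 and 348 CPM in control LPS, which overlapped and were not called (adjusted p = 0.662). Its Dicer KO levels were 338, 341 and 339 CPM in vehicle and 445, 457 and 465 CPM in LPS, above every other library. It rose 1.34-fold with LPS in Dicer KO (adjusted p = 4.42e-07) and in LPS was 1.26-fold higher in Dicer KO (adjusted p = 2.85e-05), both of negative sign with library totals. Map1lc3a measured 18.98, 20.00 and 16.7 CPM in control vehicle against 13.7, 14.3 and 13.7 CPM in Dicer KO vehicle, and 18.3, 17.8 and 16.5 against 13.5, 11.9 and 13.7 CPM in LPS. It was lower in Dicer KO at both treatments (−0.42, adjusted p = 0.000385, and −0.43, adjusted p = 0.000605) and was not called with LPS in either genotype (adjusted p = 0.352 and 0.374). Gabarapl2 was higher in Dicer KO at both treatments (0.32 in vehicle and 0.28 in LPS, the second negative with library totals). It rose with LPS in control (0.23) and Dicer KO (0.18, adjusted p = 0.0147, or 0.0623, 0.0745 and 0.0600 without Dicer KO vehicle replicate 3, Dicer KO LPS replicate 2 and the filter on low counts). Of its words of 50 bases, 12.2% are shared with 4 pseudogenes that average at most 0.225 CPM.

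The cargo receptors, which tether ubiquitinated cargo to ATG8 proteins, held the largest rises with LPS. Tax1bp1 (chromosome 6, 52713729 to 52766780), a ubiquitin-binding receptor that also takes part in limiting NF-kappaB signalling, measured 172, 165 and 169.8 CPM in control vehicle and 1136, 1036 and 1089 CPM in control LPS. In Dicer KO it measured 210.3, 220.0 and 215 CPM in vehicle and 1742, 1823 and 1849 CPM in LPS. The 4 groups did not overlap, and Dicer KO was above control at each treatment. Tax1bp1 rose 6.43-fold in control (log2 fold change 2.68 ± 0.06 SE, adjusted p = 3.16e-18) and 8.39-fold in Dicer KO (log2 fold change 3.07 ± 0.06 SE, adjusted p = 5.12e-19). The genotype difference was 1.27-fold in vehicle (adjusted p = 4.74e-05) and 1.66-fold in LPS (adjusted p = 1.77e-09). Optn (chromosome 2, 5020642 to 5064051), the receptor optineurin, measured 13.2, 12.3 and 14.6 CPM in control vehicle and 74.6, 69.3 and 71.9 CPM in control LPS. The Dicer KO libraries held 22.1, 20.8 and 19.6 CPM in vehicle and 94.2, 106 and 101 CPM in LPS. Its groups did not overlap either, and it rose 5.37-fold in control and 4.82-fold in Dicer KO. Optn was 1.55-fold higher in Dicer KO in vehicle (log2 fold change 0.64 ± 0.08 SE, adjusted p = 2.66e-06) and 1.40-fold higher in LPS (adjusted p = 3.36e-06), the second not called with library totals.

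Calcoco1, a receptor related to NDP52 that acts in autophagy of the endoplasmic reticulum, fell. It measured 77.8, 76.5 and 68.5 CPM in control vehicle, 18.9, 21.4 and 20.3 CPM in control LPS, 56.8, 47.01 and 52.4 CPM in Dicer KO vehicle and 16.01, 15.3 and 15.7 CPM in Dicer KO LPS. The fall with LPS was 3.67-fold in control and 3.32-fold in Dicer KO, and Dicer KO was below control in vehicle (log2 fold change −0.51 ± 0.07 SE, adjusted p = 7.38e-06) and in LPS (−0.37, adjusted p = 0.00219) with no overlap. Nbr1, a receptor of peroxisomes and protein aggregates, measured 156, 153 and 143 CPM in control vehicle and 74.03, 72.3 and 70.6 CPM in control LPS. Its Dicer KO levels were 185, 183 and 185 CPM in vehicle and 72.96, 76.5 and 78.5 CPM in LPS. Nbr1 fell 2.08-fold in control and 2.43-fold in Dicer KO. It was higher in Dicer KO in vehicle (0.29, adjusted p = 7.26e-05), while in LPS the groups overlapped and it was not called (adjusted p = 0.251). Sqstm1, which encodes p62, the receptor of ubiquitinated aggregates, was 1.15-fold higher in Dicer KO in vehicle (adjusted p = 0.0102, or 0.0684 without control vehicle replicate 2) and 1.26-fold higher in LPS (adjusted p = 0.00013, of negative sign with library totals). Exons of Mrnip on the opposite strand cover 17.3% of its exon bases, and Mrnip averaged at most 1.73 CPM. Sqstm1 rose with LPS in Dicer KO (0.22, adjusted p = 0.00266). In control it was not called with all libraries (adjusted p = 0.17) and was called higher without control vehicle replicate 3 (adjusted p = 0.0271) or without both libraries that stood apart (adjusted p = 0.00768).

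The last comparison asks whether the LPS response differs between the genotypes, tested as the response in Dicer KO minus that in control. Of the 36 genes, 5 were called higher and 5 lower (27.8%), against 33.7% of all genes tested (14.9% higher and 18.8% lower), with a median of 0.06 beside −0.04. The largest differences were in Wipi1 (difference of log2 fold changes −1.01 ± 0.13 SE, adjusted p = 1.24e-05), which rose in control and fell in Dicer KO, and in Atg2b (difference of log2 fold changes −0.95 ± 0.13 SE, adjusted p = 1.84e-05), which fell further in Dicer KO. Gabarapl1 (−0.30, adjusted p = 0.042) and Nbr1 (−0.22, adjusted p = 0.0218) also fell further in Dicer KO, and Atg9a (−0.23, adjusted p = 0.0287) rose less. On the other side, Map1lc3b (difference of log2 fold changes 0.54 ± 0.07 SE, adjusted p = 1.08e-05) fell less in Dicer KO, and Atg12 (difference of log2 fold changes 0.48 ± 0.08 SE, adjusted p = 0.000227) fell in control and rose in Dicer KO. With library totals, the rises of Wipi1 in control and of Atg12 in Dicer KO had a negative sign. Gabarap (0.40, adjusted p = 0.00037), Tax1bp1 (0.38, adjusted p = 0.000724) and Becn1 (0.24, adjusted p = 0.00623) had the more positive response in Dicer KO. For the other 26 genes a difference in response was not shown, which does not show that their responses were alike. None of the 9 initiation genes and ATG4 proteases was called in edgeR with TMM and all libraries or in DESeq2, with 2 at an unadjusted p under 0.05 (Ulk2 and Atg4b). With library totals Ulk2, Atg101, Rb1cc1, Atg4b, Atg4c and Atg4d were called lower (adjusted p = 0.000542 to 0.0365). On the TMM scale Ulk2 (difference of log2 fold changes −0.25 ± 0.10 SE, adjusted p = 0.0509) was called lower with a replicate block (adjusted p = 0.0396) and without control vehicle replicate 2, Dicer KO vehicle replicate 1 or Dicer KO LPS replicate 2 or 3 (adjusted p = 0.0439 to 0.0498).

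The calls of Wipi1, Atg2b, Map1lc3b, Atg12 and Gabarap held their direction and threshold under every alternative run. The number called lower was 2 in DESeq2, 2 without Dicer KO LPS replicate 1, 3 without control LPS replicate 3, 3 without the filter on low counts and 16 with library totals, where 3 were called higher and the calls of Becn1 and Tax1bp1 were lost. Atg9a, Gabarapl1 and Nbr1 were the members whose calls were lost in DESeq2 (adjusted p = 0.117, 0.106 and 0.0958), and Atg9a and Nbr1 were lost without the filter as well (adjusted p = 0.0837 and 0.0875). Atg9a was also lost without control vehicle replicate 2, control LPS replicate 3, Dicer KO vehicle replicate 1 or Dicer KO LPS replicate 1 (adjusted p = 0.0511 to 0.0921), Nbr1 without Dicer KO LPS replicate 1 (adjusted p = 0.0539), and Gabarapl1 without any one of 9 of the 12 libraries, that is all but control vehicle replicate 3, Dicer KO vehicle replicate 1 and Dicer KO LPS replicate 3 (adjusted p = 0.0519 to 0.137), and without both libraries that stood apart (adjusted p = 0.0520). Atg14 was called higher without Dicer KO LPS replicate 1 (adjusted p = 0.0151) and Wipi2 without control vehicle replicate 3 (adjusted p = 0.0360).

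**Figure D4:**
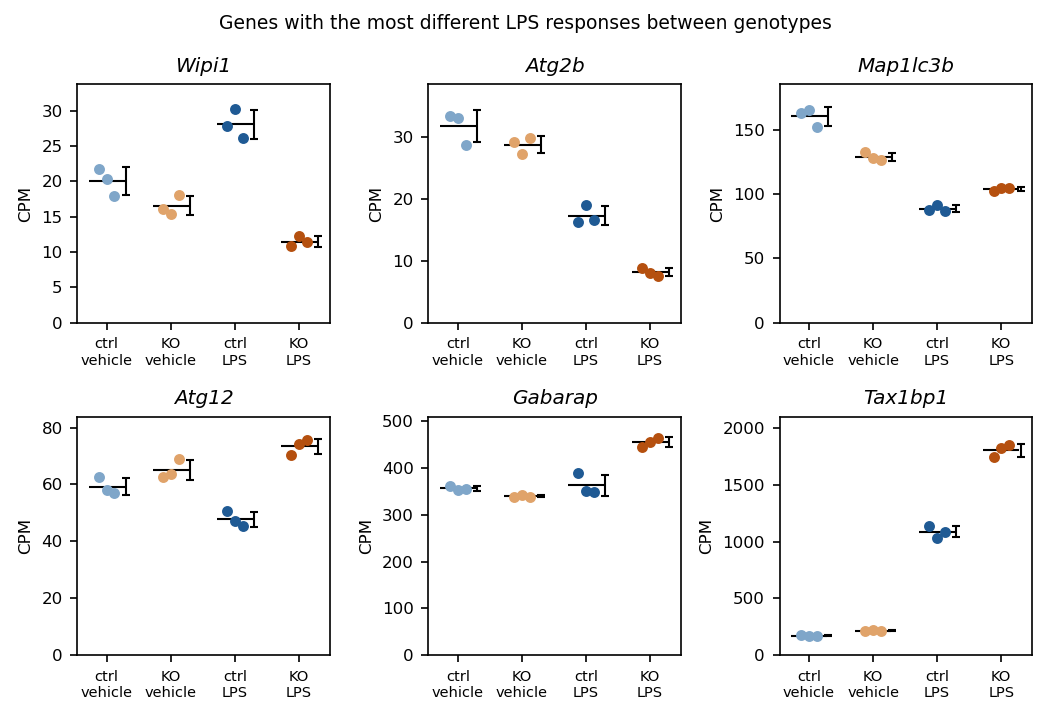
CPM of 6 genes whose LPS response differed between the genotypes, with 1 point per library, the mean as a horizontal line and ±1 SD as a bar (n = 3). In Wipi1 the control LPS libraries (26.0 to 30.2 CPM) are the highest group and the Dicer KO LPS libraries (10.8 to 12.2 CPM) the lowest, while for Atg12, Gabarap and Tax1bp1 the Dicer KO LPS libraries are the highest.

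Levels of different genes were compared per length, as CPM per kb of exon over all annotated exons of a gene, a measure that is low for genes with long alternative exons. In control vehicle, Gabarap led the ATG8 family at 193 ± 2.75, followed by Gabarapl1 (45.3 ± 0.263), Map1lc3b (21.3 ± 0.941), Map1lc3a (15.7 ± 1.43) and Gabarapl2 (11.6 ± 0.366), with no overlap of neighbours. In control LPS Gabarapl1 came last (11.2 ± 0.0193), below Map1lc3b (11.8 ± 0.333), while Map1lc3a (14.8 ± 0.780) and Gabarapl2 (13.5 ± 0.827) overlapped. In Dicer KO LPS Gabarap reached 247 ± 5.36, and Gabarapl2 (16.5 ± 0.859) came next, ahead of Map1lc3b (13.8 ± 0.210). Among the cargo receptors Sqstm1 led in each group (153 ± 10.04 in control vehicle, 204 ± 9.45 in Dicer KO LPS). Tax1bp1 moved from 16.9 ± 0.373, below Nbr1 (21.9 ± 0.966), to 109 ± 5.02 in control LPS, above Nbr1 (10.5 ± 0.247). Of all 36 genes the lowest level was that of Atg2b in Dicer KO LPS (0.605 ± 0.0468).

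**Figure D5:**
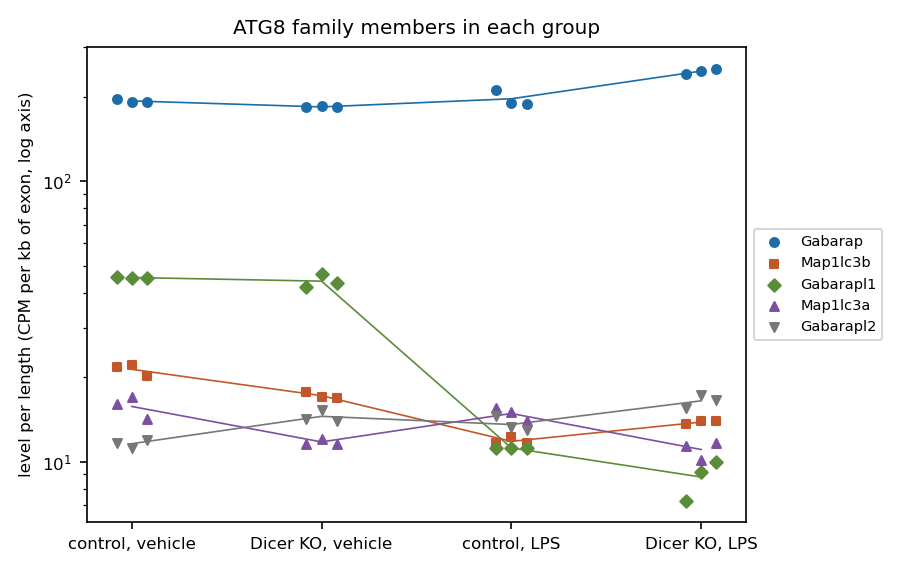
Level of the 5 ATG8 family genes per length (CPM per kb of exon, log axis) in each library, with lines joining group means. Gabarap lies highest in every group, and Gabarapl1 drops from 45.3 to 11.2 with LPS in control and from 44.0 to 8.80 in Dicer KO.

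Around the core machinery, 79 of 81 further pathway genes in 5 lists were tested. Their counts stand against the shares of all genes called, which were 79.1% with LPS in control (38.0% higher and 41.1% lower), 80.1% with LPS in Dicer KO (37.4% and 42.7%), 46.2% between genotypes in vehicle (25.0% and 21.2%) and 55.8% in LPS (28.8% and 27.0%). For the difference of responses the share of all genes was 33.7% (14.9% higher and 18.8% lower). In that test 18 of the 79 were called higher and 17 lower (44.3%). Upstream kinases and nutrient sensors (21 tested) had lower medians with LPS than the other 4 lists, with 8 called higher and 13 lower in each genotype (medians −0.60 in control and −0.44 in Dicer KO). Deptor, an mTOR inhibitor, fell from 32.4 ± 2.11 to 0.755 ± 0.141 CPM in control (log2 fold change −5.42) and by a similar fold in Dicer KO (−5.47). Prkag2, an AMPK subunit, fell in control (−4.78) and Dicer KO (−5.17). Sesn1, a leucine sensor that restrains mTORC1, fell from 164 ± 5.73 to 11.2 ± 1.00 CPM in control (−3.87) and from 117 ± 6.65 to 2.66 ± 0.357 CPM in Dicer KO (−5.45), and the responses differed (−1.59, adjusted p = 1.65e-07). For the difference of responses, 4 of the 21 were called higher and 3 lower (33.3%). Between genotypes in vehicle, 7 were higher and 5 lower, led by Rragd, a Rag GTPase (1.06), Deptor (−0.76) and the AMPK subunit Prkab2 (−0.72). In LPS 11 were higher and 6 lower, led by Sesn1 (−2.08), Prkab2 (−1.60) and Sesn3 (1.09). The share called was 100.0% with LPS in each genotype, and 57.1% in vehicle and 81.0% in LPS between genotypes. With library totals the genotype counts were 6 higher and 9 lower in vehicle and 4 and 12 in LPS, and the LPS counts 2 and 17 in control and 2 and 18 in Dicer KO.

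Of 9 transcriptional regulators of autophagy genes, 5 were higher and 3 lower with LPS in control, and 6 and 3 in Dicer KO. Tfeb fell from 44.4 ± 3.45 to 16.6 ± 1.30 CPM in control (−1.42) and from 47.9 ± 7.16 to 7.82 ± 0.266 CPM in Dicer KO (−2.61), while Mitf, of the same family, rose in both (1.06 and 1.47). Foxo3, a forkhead activator of autophagy genes, fell in control (−1.28) and Dicer KO (−2.04). All 3 had LPS responses that differed between the genotypes (Tfeb −1.20, adjusted p = 1.54e-05, Foxo3 −0.76, adjusted p = 1.38e-05, and Mitf 0.41, adjusted p = 9.82e-05). In this test 2 of the 9 regulators were called higher and 3 lower (55.6%), against 33.7% of all genes tested. In vehicle 1 was higher and 3 lower in Dicer KO (Foxo1 −0.40, Foxo3 −0.30 and Zkscan3 −0.26), and in LPS 2 were higher and 3 lower, led by Tfeb (−1.09), Foxo3 (−1.06) and Foxo1 (−0.62). The share called between genotypes, 44.4% in vehicle and 55.6% in LPS, was close to that of all genes, and with LPS it was 88.9% in control and 100.0% in Dicer KO. The medians were 0.41 with LPS in both genotypes, −0.08 between genotypes in vehicle and −0.01 in LPS. With library totals none was higher and 5 were lower in Dicer KO in vehicle, none and 8 in LPS, and with LPS the counts were 2 and 4 in control and 1 and 6 in Dicer KO.

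Of 17 accessory genes of initiation, nucleation and lipid transfer, 9 were higher and 8 lower with LPS in control, and 9 and 6 in Dicer KO. Rubcnl, which encodes Pacer, a partner of the PI3-kinase complex, rose in control (2.64) and Dicer KO (2.78), as did Snx18, a membrane-remodelling sorting nexin (2.26 and 2.67). Atg9b, the paralog of Atg9a, fell in both (−2.66 and −3.55) from low levels (5.97 ± 1.56 CPM in control vehicle, 0.301 ± 0.000472 CPM in Dicer KO LPS). In Dicer KO vehicle 7 were higher and 4 lower, led by Rubcnl (0.81), Atg9b (−0.73) and the PI3P reader Wdr45 (−0.65). In LPS 9 were higher and 6 lower, led by Atg9b (−1.62), Rubcnl (0.95) and Sh3glb1, a Becn1-binding protein (0.55). The share called was 100.0% and 88.2% with LPS in control and Dicer KO, and 64.7% and 88.2% between genotypes in vehicle and LPS. The medians were 0.41 and 0.24 with LPS in control and Dicer KO, and 0.08 and 0.15 between genotypes in vehicle and LPS. Under library totals the genotype counts were 5 higher and 7 lower in vehicle and 2 and 8 in LPS, and the LPS counts 6 and 8 in control and 4 and 11 in Dicer KO.

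Of 14 genes for tethering to and fusion with lysosomes, 10 were higher and none lower in Dicer KO in vehicle by edgeR (median log2 fold change 0.25), and 9 and none in LPS (0.30). In DESeq2 the counts were 10 and 0 in vehicle and 11 and 0 in LPS, and at an unadjusted p under 0.05 in edgeR they were 10 and 1 in vehicle and 10 and 0 in LPS. The share called was 71.4% in vehicle and 64.3% in LPS, all of it higher, where 25.0% and 28.8% of all genes were called higher and the median of all genes was 0.01 and −0.03. The leading genes in vehicle were Vps33a (0.69) of the HOPS tether, Plekhm1 (0.57), a Rab7 effector, and Snap29 (0.51), a SNARE of autophagosome fusion. In LPS they were the SNAREs Ykt6 (0.67), Snap29 (0.54) and Vamp8 (0.53). Scaled by library totals, the counts were 6 higher and 3 lower in vehicle and 3 and 5 in LPS (median −0.05). With LPS, 4 were higher and 6 lower in control and 5 and 7 in Dicer KO, led in control by Tecpr1 (−2.51), an autophagosome tether, Plekhm1 (−1.65) and the SNARE Stx17 (−1.24). With LPS 71.4% were called in control and 85.7% in Dicer KO. In Dicer KO the largest changes were in Tecpr1 (−2.39), Plekhm1 (−1.94) and Vps39 (−1.06). With library totals the LPS counts were 3 higher and 11 lower in control and 1 and 10 in Dicer KO.

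Of 18 other selective autophagy receptors and adaptors, 7 were higher and 2 lower in Dicer KO in vehicle. Irgm1, an interferon-induced GTPase linked to autophagy, rose from 93.1 ± 11.02 to 427 ± 51.2 CPM (2.20), Keap1, a partner of p62, was higher (0.72), and the mitophagy receptor Bnip3 was lower (−1.52). In LPS 6 were higher and 4 lower, led by Irgm1 (1.37) and Bnip3 (−1.23). With LPS, 6 were higher and 7 lower in control and 7 and 8 in Dicer KO. In control the largest changes were in Irgm1 (2.70) and the endoplasmic reticulum receptors Retreg1 (−2.21) and Ccpg1 (−1.80). In Dicer KO they were in Retreg1 (−2.44), the ferritin receptor Ncoa4 (−1.91) and Irgm1 (1.87). The share called, 9 of 18 and 10 of 18 between genotypes in vehicle and LPS and 72.2% and 83.3% with LPS in control and Dicer KO, was close to that of all genes. The medians were 0.08 and 0.06 between genotypes in vehicle and LPS, and −0.06 and −0.02 with LPS in control and Dicer KO. Under library totals the genotype counts were 4 higher and 5 lower in vehicle and 2 and 13 in LPS, and the LPS counts 3 and 14 in each genotype.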

How the data were processed

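Poly(A) RNA of 12 macrophage cultures was sequenced from a stranded mRNA library kit, per the labels' protocols. The authors deposited 1 table of raw read counts per gene and library, the unit used here. The submitters' processing notes name STAR 2.5, DESeq2 (no version) and the builds mm10 and GRCm38.p5, while the program that counted reads, whether it used strand, and its gene annotation are not stated in these sources. The deposited count files also list reads without a gene, which were left out of library sizes: of all alignments listed, 45.8% to 46.8% fell in no gene, 9.85% to 11.6% were not unique and 0.626% to 0.768% were ambiguous, and 41.7% to 43.3% were assigned to genes. Of the 46078 identifiers, 45229 matched GENCODE M21 (GRCm38), and those unmatched held 0.141% of counts.

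The counts were filtered with filterByExpr, scaled with TMM and tested with edgeR 4.0.16 (limma 3.58.1, R 4.3.3) by glmQLFit (robust) and glmQLFTest, two-sided, over all 12 libraries in 4 groups, with Benjamini-Hochberg adjustment over the 13837 genes tested in each of 5 comparisons and a threshold of 0.05. The biological coefficient of variation was 6.30%. The depth of all libraries was similar, so precision depends partly on a gene's level and partly on its spread between libraries. The script was tested on simulated data. Alternatives were DESeq2 1.42.0, library totals in place of TMM, no filter on low counts, the 2 compared groups alone, a replicate block, leaving out each library, and leaving out both libraries that stood apart. Values in every library are given for the 5 called genes with the largest change in each direction of the LPS and genotype comparisons, and for all called in the difference of responses. From each pathway list up to 3 called genes are named per comparison. The 36 genes, the lists and the tests were chosen with earlier results of these data known. Exon overlaps, words of 50 bases shared between genes and 3′ UTRs came from GENCODE M21, and microRNAs and promoters from the RefSeq tables.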

Additional observations from a re-analysis of the deposited data

Results flagged for a closer look

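The LPS response of 10 of the 36 genes differed between the genotypes by a test of the difference itself (edgeR's quasi-likelihood test of the interaction, Benjamini-Hochberg adjusted). As the log2 response in Dicer KO minus that in control, the value was −1.01 for Wipi1 (adjusted p = 1.24e-05), −0.95 for Atg2b (adjusted p = 1.84e-05), −0.30 for Gabarapl1 (adjusted p = 0.042), −0.23 for Atg9a (adjusted p = 0.0287) and −0.22 for Nbr1 (adjusted p = 0.0218). It was 0.54 for Map1lc3b (adjusted p = 1.08e-05), 0.48 for Atg12 (adjusted p = 0.000227), 0.40 for Gabarap (adjusted p = 0.00037), 0.38 for Tax1bp1 (adjusted p = 0.000724) and 0.24 for Becn1 (adjusted p = 0.00623). Of all genes tested, 33.7% were called in this comparison, so 10 of 36 (27.8%) is no higher a share than among all genes tested. Summed T and NK lymphocyte and dendritic cell markers were also highest in the Dicer KO LPS libraries (37.4 to 40.8 and 17.3 to 18.3 CPM), and their part in these values was not tested.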

How the results depend on the processing

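Over the 5 comparisons and 36 genes (180 tests), 124 were called. Scaling by library totals changed the most, since it puts the median of all genes at −0.12 to −0.85 over the comparisons. With it, 18 genes were lower in Dicer KO in vehicle, 4 higher and 24 lower in LPS, 8 higher with LPS in control, 6 higher and 28 lower with LPS in Dicer KO, and 3 higher and 16 lower in the difference of responses. The values that then reversed were, for Dicer KO over control in LPS, Atg13 (−0.17), Pik3c3 (−0.28), Atg14 (−0.024), Uvrag (−0.18), Ambra1 (−0.23), Wipi2 (−0.35), Atg9a (−0.23), Atg4d (−0.14), Map1lc3b (−0.12), Gabarap (−0.024), Gabarapl2 (−0.071), Sqstm1 (−0.022) and Nbr1 (−0.28). For LPS in Dicer KO they were Atg101 (−0.59), Rb1cc1 (−0.52), Becn1 (−0.18), Atg5 (−0.55), Atg10 (−0.65), Atg12 (−0.58), Atg4b (−0.60), Gabarap (−0.32), Gabarapl2 (−0.56) and Sqstm1 (−0.53). For LPS in control they were Atg101 (−0.18), Rb1cc1 (−0.30), Becn1 (−0.19), Wipi1 (−0.037), Atg5 (−0.12), Atg4b (−0.20), Gabarap (−0.50), Gabarapl2 (−0.30) and Sqstm1 (−0.43), and in the difference of responses Rb1cc1 (−0.22). Of these, 24 were called before the change of scaling and 9 were not. Library totals lost 10 further calls and gained 25, and 17 values called under neither scaling changed sign.

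The number of lower calls in the difference of responses was 3 without the filter on low counts, 2 in DESeq2 and between 2 and 6 when each library was left out in turn. The other counts ranged over those left-out libraries as 10 to 12 higher and 8 to 12 lower in vehicle, 12 to 16 and 11 in LPS, 15 to 16 and 16 to 18 for LPS in control, 13 to 17 and 16 for LPS in Dicer KO, and 5 to 6 higher in the difference. Leaving out 1 of the 12 libraries lost 56 calls and gained 15 in all, DESeq2 lost 6 and gained 2, no filter lost 6, the 2 groups alone lost 1, and leaving out both libraries that stood apart lost 2 and gained 3.

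Replicate numbers did not pair the samples: deviations of same-numbered samples correlated at −0.232 to 0.182 and of others at −0.317 to 0.342, and not every sample correlated best with its own number. The highest value, 0.342, was between the 2 libraries that stood apart. The lowest, −0.317, was between the control library of that pair and replicate 1 of Dicer KO vehicle. The libraries of that pair carry different replicate numbers, so a replicate block does not model a deviation they share. Its source was not tested. With a replicate block the counts were 11 higher and 11 lower in vehicle, 15 and 11 in LPS, 15 and 18 for LPS in control, 17 and 16 for LPS in Dicer KO, and 5 and 6 in the difference of responses, where Ulk2 was gained (adjusted p = 0.0396). Depth limited the low genes most, such as Atg10 at 5.66 to 7.89 CPM, and 3 libraries per group limited all of them.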

Other observations

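The make-up of the summed ATG8 and cargo receptor transcripts per length differed between vehicle and LPS in both genotypes, given here as a description with no test. Gabarap made up 67.3 ± 0.48% of the summed ATG8 family level in control vehicle and 79.3 ± 0.68% in control LPS (mean ± SD, n = 3), and 67.8 ± 0.65% and 83.1 ± 0.32% in Dicer KO. The share of Gabarapl1 went from 15.8 ± 0.17% to 4.51 ± 0.24% in control and from 16.2 ± 0.62% to 2.96 ± 0.40% in Dicer KO. Among the 5 cargo receptors Sqstm1 held 73.3 ± 1.7% in control vehicle and 53.4 ± 1.3% in control LPS, and 73.6 ± 1.3% and 48.03 ± 0.37% in Dicer KO. Tax1bp1 held 8.14 ± 0.28% in control vehicle, 35.7 ± 1.3% in control LPS, 9.03 ± 0.16% in Dicer KO vehicle and 42.4 ± 0.47% in Dicer KO LPS. Optn went from 1.71 ± 0.076% to 6.29 ± 0.16% in control and from 2.33 ± 0.19% to 6.28 ± 0.21% in Dicer KO. These shares do not depend on the scaling of the libraries, since both terms of each ratio come from the same library. They do depend on the length used, all annotated exon bases of a gene, which was 7517 for Map1lc3b, 1844 for Gabarap and 2013 for Gabarapl1.

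Apoe, deleted in every mouse by the labels, measured 16.3 to 20.0 CPM in control vehicle, 4.94 to 6.14 CPM in Dicer KO vehicle, 3.67 to 4.90 CPM in control LPS and 0.979 to 1.503 CPM in Dicer KO LPS, counted over the whole gene.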
